A study of Rattus norvegicus with 3 samples.

Results

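Respiratory complex I, the NADH dehydrogenase of mitochondria, takes electrons from NADH, passes them to ubiquinone and pumps protons across the inner membrane. Most of its subunits are made from nuclear genes, but 7 are read from the mitochondrial genome, and those 7 are described here: Mt-nd1, Mt-nd2, Mt-nd3, Mt-nd4, Mt-nd4l, Mt-nd5 and Mt-nd6. All sit in the membrane arm of the enzyme. The product of Mt-nd1 lies where the arm meets the ubiquinone site, those of Mt-nd2, Mt-nd4 and Mt-nd5 are the large proton-pumping subunits, and those of Mt-nd3, Mt-nd4l and Mt-nd6 are small subunits. Mitochondrial messages are cut from long transcripts of the whole genome, so genes that share a strand start from a shared precursor, and their separate levels depend on processing and turnover. Mt-nd4l and Mt-nd4 stay together on a shared message with overlapping reading frames, as do Mt-atp8 and Mt-atp6, while Mt-nd6 is read from the opposite strand.

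The 7 genes were taken by symbol from the 23098 features of the count tables, which list 13 mitochondrially encoded genes, all of them protein-coding. They were selected on ratios between these same libraries, in which Mt-nd3 and Mt-nd4l had stood out, so every ratio between libraries below is a description and supports no test. In the feature table the mitochondrial genes follow each other with Mt-nd3, Mt-nd4l and Mt-nd4 side by side at places 8, 9 and 10. The tables give no coordinates, and no mitochondrial sequence was used here.

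The samples were nuclei from punches of the nucleus accumbens, a ventral striatal region of motivation and reward, taken from outbred Wistar rats at 16 weeks of age. Rats had been classed by their behaviour in anxiety tests. Of the 3 libraries, those named low anxiety (LA) and high anxiety (HA) came from rats without treatment. The library named UA came from high anxiety rats given urolithin A, a gut microbial metabolite known to induce mitophagy, for 2 months. Each library pooled 5 hemispheres, and the labels do not say how many animals these came from. With 1 library per group there was no replicate, a difference between groups cannot be told apart from a difference between libraries, and each interval below is a 95% interval for counting error only.

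Total depth was 16728049 UMIs (unique molecular identifiers, each counting a captured transcript) in LA, 22095390 in HA and 19162530 in UA, and 3380, 3694 and 3421 nuclei were kept in that order. The kept nuclei held 49179, 71391 and 68832 UMIs of the 7 members. Mitochondrial RNA lies outside the nucleus, so in a preparation of nuclei these UMIs come with whatever cytoplasm, mitochondria or free RNA was carried along, and how much of each was not tested. Mitochondrial UMIs made up 1.04%, 1.10% and 1.27% of all UMIs in kept nuclei. Libraries shared between 4 and 6 barcodes a pair. Nuclei were clustered without any mitochondrial gene, and 8 classes held at least 50 nuclei in every library. Each class name stands for nuclei like that type by its markers, which were detected at high levels in their own class. D1 nuclei had 1008 to 1070.2 CPM of summed D1 markers and 227 to 271 of D2 markers, and D2 nuclei had 4424 to 4773 of D2 and 25.6 to 53.1 of D1 markers. Some lists were also high outside their class. Eccentric neurons had 509 to 589 CPM of D1 markers. Oligodendrocyte precursors had 4530 to 4927 CPM of GABAergic interneuron markers, beside 12595 to 13165 of their own. Within the D1 class, cluster 3 was weakly marked: its D1 markers averaged a log2 ratio to the other nuclei of 0.41, against 1.21 in cluster 2.

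The summed level of the 7 members, in UMIs per 1000000 UMIs of the class (CPM), did not move in 1 direction over the cell classes. It was higher in HA than in LA in D1 and D2 medium spiny neurons, the main projection neurons of the region, and lower in astrocytes, oligodendrocyte precursors and microglia. In D1 neurons the sum was 2618 CPM in LA, 3500.5 in HA and 3637 in UA. In D2 neurons it was 2163.5, 2868 and 3619 CPM in that order. The step from LA to HA was of like size in both, at a log2 ratio of 0.42 (interval 0.39 to 0.45) in D1 and 0.41 (0.36 to 0.45) in D2. UA exceeded HA by 0.06 (0.03 to 0.08) in D1 and by 0.34 (0.30 to 0.37) in D2. These 2 comparisons share the HA library, so their values stand side by side and are not independent. Among nuclei with at most 1% mitochondrial UMIs, UA over HA turned to -0.15 in D1 neurons and was 0.082 in D2 neurons, and HA over LA was 0.38 and 0.15. In the largest cluster alone HA over LA was 0.60 in D1 neurons. That cluster, 2, had a sum of 2374 CPM in LA and 3597 in HA, and cluster 3 had a smaller step, at 2865 and 3395.

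In astrocytes, the glia that supply neurons with metabolites, the sum was 3315 CPM in LA, 1802 in HA and 1734 in UA. The HA over LA log2 ratio was -0.88 (-1.01 to -0.75). In oligodendrocyte precursors the values were 3358, 2042 and 3214 CPM, so HA stood below both other libraries. Microglia had 3621, 2385 and 2796 CPM. The other mitochondrial genes stood alike in these 3 classes: for HA over LA, 5 of 5 measured were lower in each by a log2 ratio of at least 0.32. Their median log2 ratios were -0.66, -0.74 and -0.78. Of all measured genes, 16.6%, 12.4% and 9.65% were lower by that size. All mitochondrial UMIs together made up 1.049%, 0.603% and 0.581% of the UMIs of astrocytes, 1.12%, 0.686% and 1.15% of those of oligodendrocyte precursors, and 1.22%, 0.766% and 0.898% of those of microglia. The 10 shared markers of medium spiny neurons, all of them detected there, summed to 2623, 1772 and 1784 CPM in astrocytes. In oligodendrocyte precursors they summed to 2143, 1728 and 1648 CPM, and in microglia to 930.2, 715 and 794. Their part in the members' levels was not tested. Oligodendrocytes, the myelinating cells, had 4657, 4478 and 3869.5 CPM, with log2 ratios of -0.06 (-0.10 to -0.01) and -0.21 (-0.25 to -0.17) in the 2 comparisons. Eccentric medium spiny neurons, a smaller projection population, had 4385, 4633 and 5309.7 CPM, and GABAergic interneurons had 3594, 3678 and 4741. HA had the highest sum in 0 of the 8 classes, LA in 4 and UA in 4. The UA over HA log2 ratio was 0.37 (0.32 to 0.41) in GABAergic interneurons and 0.65 (0.53 to 0.78) in oligodendrocyte precursors, and among nuclei with at most 1% mitochondrial UMIs it turned to -0.28 and -0.25.

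The order of classes differed between libraries too. LA had its highest sum in oligodendrocytes and its lowest in D2 neurons, with microglia, GABAergic interneurons, oligodendrocyte precursors and astrocytes in between at levels whose neighbouring intervals overlapped. In HA the eccentric neurons and oligodendrocytes led with overlapping intervals, and oligodendrocyte precursors and astrocytes were last, also overlapping. In UA the intervals of D1 and D2 neurons overlapped, and astrocytes were again last. Class depth moved with the libraries as well: the median nucleus of the D1 class held 6018 UMIs in LA, 7670.0 in HA and 6657.5 in UA, and that of the astrocyte class held 2086, 2707 and 2667. With each nucleus thinned to 2000 UMIs, the log2 ratio of the sum for HA over LA was 0.51 in D1 and 0.51 in D2 neurons, and for UA over HA it was 0.024 and 0.20. Split into 4 bins by total UMIs, D1 nuclei had a sum of 2459 CPM in LA and 4109 in HA in the shallowest bin. In their deepest bin it was 3539 in LA and 3502 in HA. D2 nuclei had 2311 and 3796 CPM in the shallowest bin and 2323 and 2623 in the deepest. Over the bins of D1 neurons, D2 neurons and oligodendrocytes, LA had the lowest sum in 7 of 12, all of them bins of D1 or D2 neurons. In the shallowest bin of oligodendrocytes LA was highest, at 4412 CPM against 3692 in HA and 3149 in UA.

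**Figure D1:**
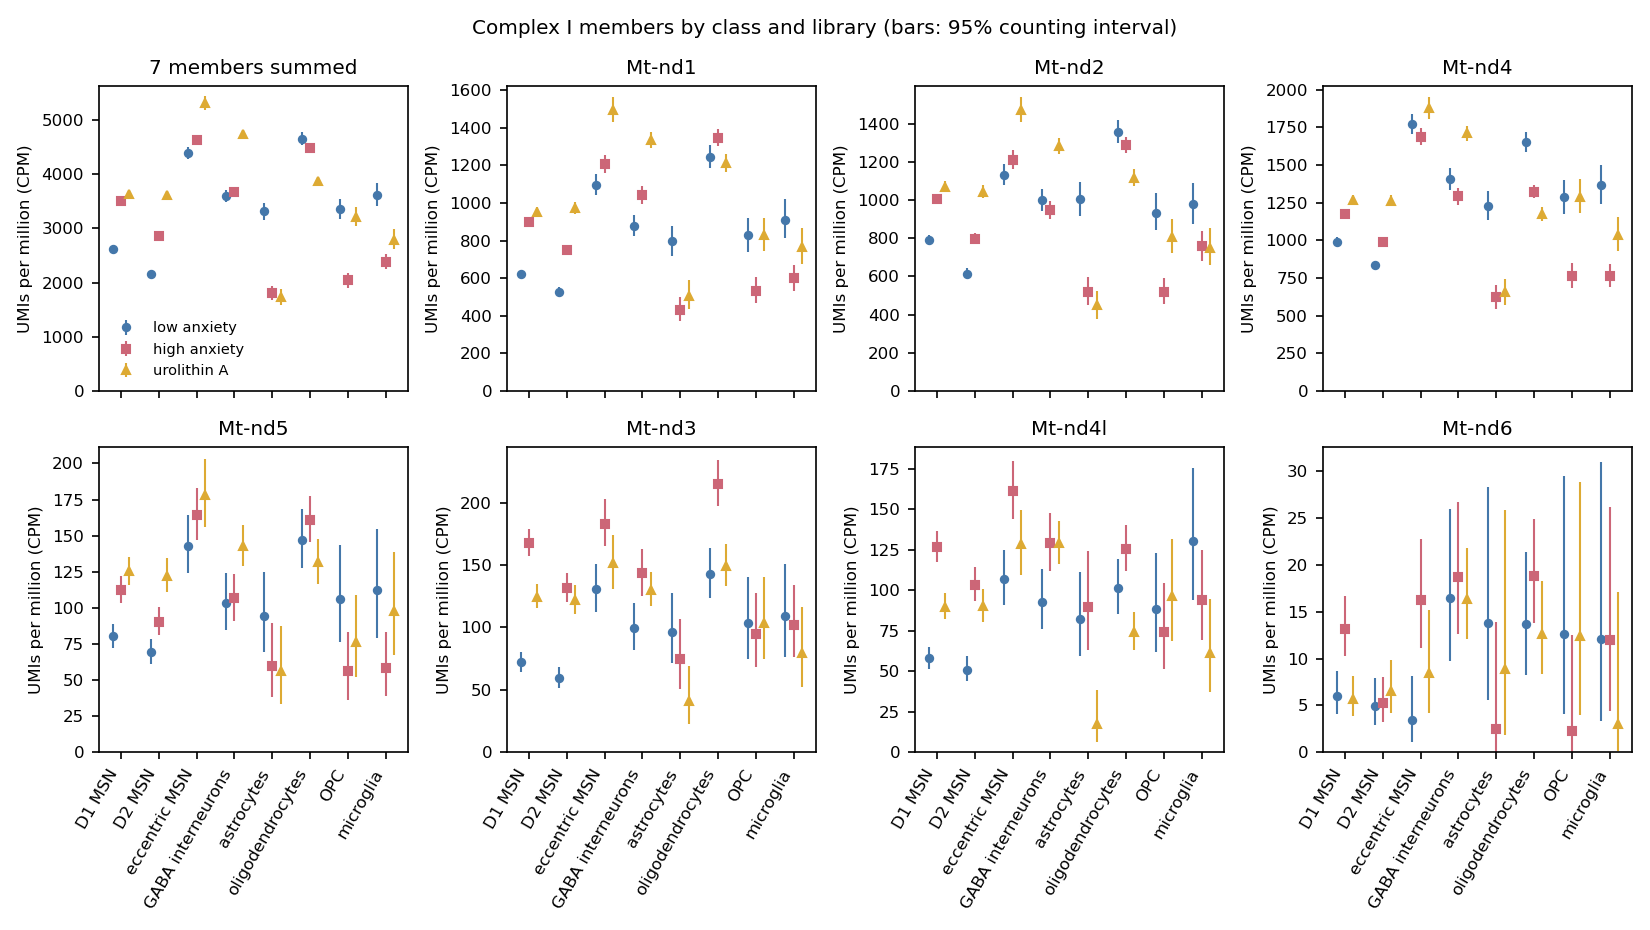
Level of the summed 7 members and of each member (y axis, UMIs per 1000000 UMIs of the class, linear from 0) in 8 classes (x axis; MSN, medium spiny neurons; OPC, oligodendrocyte precursors) and 3 libraries, with bars for the 95% Poisson counting interval. In D1 neurons the sum runs from 2618 CPM in LA to 3637 in UA, while in astrocytes it runs from 3315 in LA to 1734, and the squares of HA stand highest for Mt-nd3 in 5 of 8 classes and for Mt-nd1 in 1.

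In D1 neurons Mt-nd3 and Mt-nd4l were highest in HA, and the genes of the large subunits were highest in UA. Mt-nd1, at the ubiquinone junction, had 622 CPM in LA, 899 in HA and 953 in UA in D1 neurons. Mt-nd2 had 789, 1004 and 1068.5 CPM there, and Mt-nd4 had 991, 1178 and 1270.1. Mt-nd5, the pumping subunit at the far end of the arm, had 80.2, 112 and 125 CPM. All 4 of these were lowest in LA and highest in UA. Mt-nd3, whose product carries a loop near the ubiquinone site, had 72.1, 168 and 125 CPM, and Mt-nd4l had 57.9, 127 and 90.0, so both were highest in HA. The intervals of the 3 libraries did not overlap for either gene.

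As log2 ratios of HA over LA in D1 neurons, Mt-nd3 stood at 1.22 (1.04 to 1.40) and Mt-nd4l at 1.13 (0.93 to 1.34), while Mt-nd1, Mt-nd5, Mt-nd2 and Mt-nd4 stood at 0.53, 0.49, 0.35 and 0.25. A gene was counted as higher or lower where its log2 ratio was at least 0.32 in size and 1 of the 2 libraries held 100 or more of its UMIs. By that rule 5 of 7 members were higher in HA and 0 lower, Mt-nd4 was short of the ratio and Mt-nd6 was short of the UMIs. Of all 7471 genes measured there, 7.56% were higher and 11.5% lower. As the members were selected on this contrast, nothing is read from their count. For UA over HA, Mt-nd3 was at -0.43 (-0.58 to -0.28) and Mt-nd4l at -0.50 (-0.67 to -0.32), the 2 of 7 members that were lower, with 0 higher, where 4.55% of all measured genes were lower and 8.55% higher. The other 4 with enough UMIs lay between 0.08 and 0.16. Against LA, UA was still higher for both, at 0.79 for Mt-nd3 and 0.64 for Mt-nd4l.

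D2 neurons gave the same order between LA and HA and another picture under UA. Mt-nd3 had 59.8 CPM in LA, 131 in HA and 122 in UA, and Mt-nd4l had 51.0, 104 and 90.4. Their HA over LA log2 ratios were 1.14 (0.90 to 1.38) and 1.02 (0.76 to 1.28). Again 5 of 7 members were higher and 0 lower, where 7.66% of measured genes were higher and 10.5% lower. Under UA the intervals of both genes against HA crossed 0, at -0.11 (-0.30 to 0.08) and -0.20 (-0.41 to 0.02), while Mt-nd1, Mt-nd2, Mt-nd4 and Mt-nd5 were higher by 0.38, 0.38, 0.35 and 0.44. Those 4 of 7 were counted as higher and 0 as lower, where 10.2% of measured genes were higher and 4.89% lower. Mt-nd1 went from 529 to 749.6 to 973 CPM over the 3 libraries, and Mt-nd4 from 834 to 989 to 1263.

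**Figure D2:**
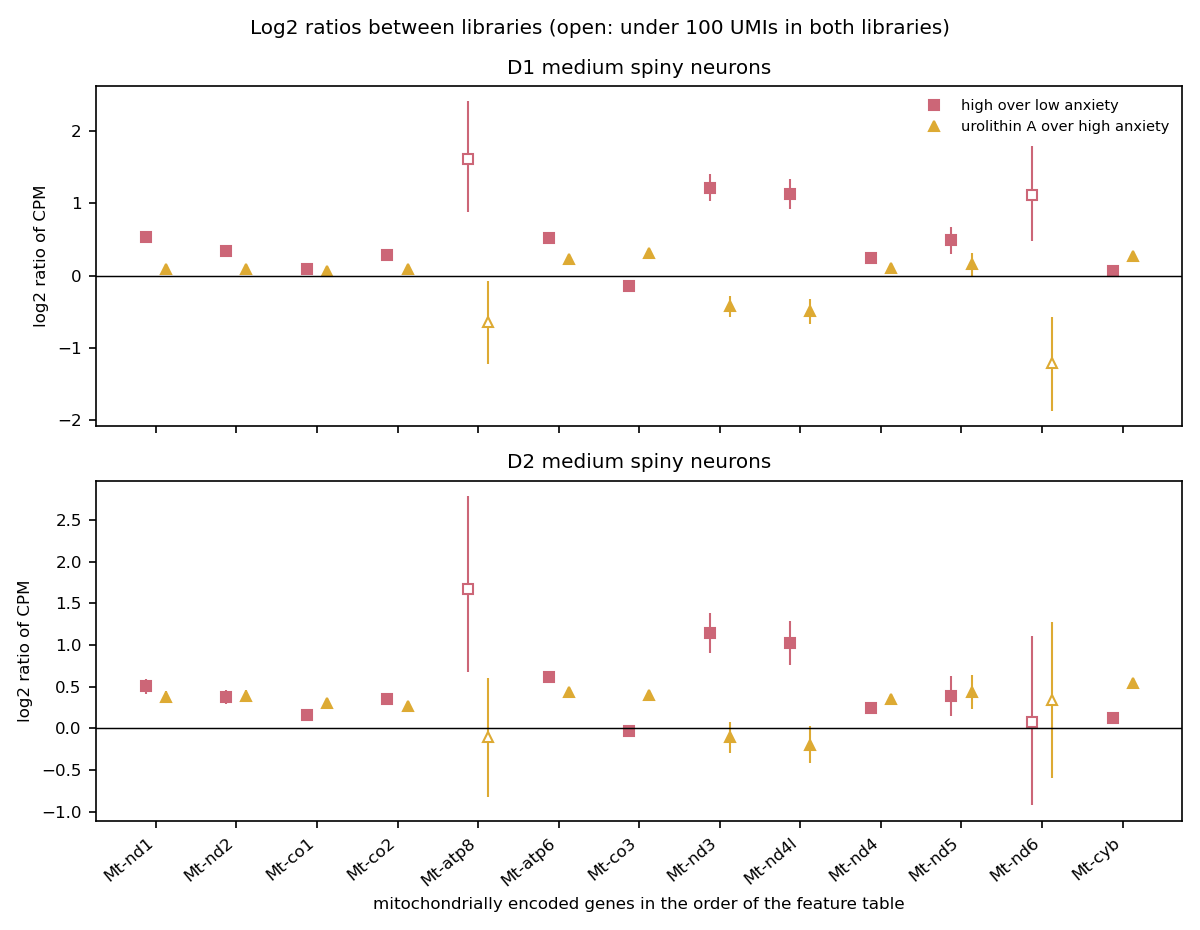
Log2 ratio of CPM (y axis) for the 13 mitochondrially encoded genes (x axis, in the order of the feature table) in D1 and D2 medium spiny neurons, for HA over LA (squares) and UA over HA (triangles), with 95% counting intervals and open symbols where a gene had under 100 UMIs in both libraries. In D1 neurons Mt-nd3 and Mt-nd4l stand at 1.22 and 1.13 for HA over LA and at -0.43 and -0.50 for UA over HA.

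In the other classes the members had fewer UMIs. For HA over LA, Mt-nd3 and Mt-nd4l were higher in eccentric neurons, 2 of 7 members with 0 lower, where 11.2% of measured genes were higher and 7.49% lower. The same 2 were higher in GABAergic interneurons, where 14.6% of measured genes were higher and 11.9% lower. In oligodendrocytes Mt-nd3 alone was higher, at 142 CPM in LA, 215 in HA and 149 in UA, where 12% of measured genes were higher and 6.0% lower. Mt-nd1, Mt-nd2 and Mt-nd4 were the members with enough UMIs in the other glia, and all 3 were lower in each. Of measured genes, 11.8% were higher and 16.6% lower in astrocytes, 11.8% and 12.4% in oligodendrocyte precursors, and 20.6% and 9.65% in microglia. Mt-nd4 in astrocytes, for example, had 1229 CPM in LA, 622 in HA and 655 in UA. For Mt-nd3 and Mt-nd4l the intervals for HA over LA crossed 0 in these 3 glial classes and lay above 0 in the other 5.

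For UA over HA, Mt-nd1, Mt-nd2, Mt-nd4 and Mt-nd5 were higher in GABAergic interneurons, 4 of 7 members, where 18.1% of measured genes were higher and 9.12% lower. Mt-nd1, Mt-nd2 and Mt-nd4 were higher in oligodendrocyte precursors, where 9.85% of measured genes were higher and 8.69% lower. In microglia Mt-nd1 and Mt-nd4 were higher, where 3.39% of measured genes were higher and 13.7% lower. Mt-nd3 and Mt-nd4l were lower in oligodendrocytes, where 3.44% of measured genes were higher and 5.32% lower. Mt-nd4l was lower in eccentric neurons, where 8.51% of measured genes were higher and 8.05% lower. In astrocytes 0 of 7 members were counted in either direction, where 9.62% of measured genes were higher and 11.1% lower. Mt-nd4l in astrocytes had 42 UMIs in LA, 36 in HA and 6 in UA, too few to be counted by the rule.

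Mt-nd6, the member read from the opposite strand, was too sparse for the rule in all 8 classes, with 1 to 69 UMIs per class and library. In D1 neurons it had 29, 69 and 30 UMIs, or 6.04, 13.1 and 5.69 CPM, and in eccentric neurons it had 5, 33 and 11 UMIs. Over all kept nuclei it had 137, 276 and 161 UMIs, with log2 ratios of 0.63 (0.33 to 0.93) for HA over LA and -0.56 (-0.85 to -0.27) for UA over HA. D2 neurons did not show that order, with 17, 20 and 23 UMIs. Whether reads of Mt-nd6 were kept apart from antisense reads of its neighbours was not given in the sources used here.

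Between members, the balance was highest in HA in every class compared, while the order of LA and UA varied. For every 100 UMIs of the other 5 members, HA held more UMIs of Mt-nd3 plus Mt-nd4l than either other library in 8 of 8 classes. LA ranged over classes from 5.23 in D1 neurons to 7.08 in microglia, with a median of 5.68. HA ranged from 8.0 in GABAergic interneurons to 10.1 in astrocytes, with a median of 8.94. UA ranged from 3.52 in astrocytes to 6.65 in oligodendrocyte precursors, with a median of 5.96. The class ranges of HA did not overlap those of the other libraries, whereas LA and UA overlapped and UA was above LA in 5 of 8 classes. The astrocyte values at the top of HA and the bottom of UA rest on 66 and 20 UMIs of Mt-nd3 plus Mt-nd4l. Astrocytes, oligodendrocyte precursors and microglia held under 100 such UMIs in every library. Per 100 UMIs of the other 11 mitochondrial genes, the ranges of HA and LA did overlap. HA was as low as 1.99 in oligodendrocytes and LA as high as 2.01 in microglia, though HA was above LA in 8 of 8 classes. Classes of 1 library share its preparation and are not replicates.

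**Figure D3:**
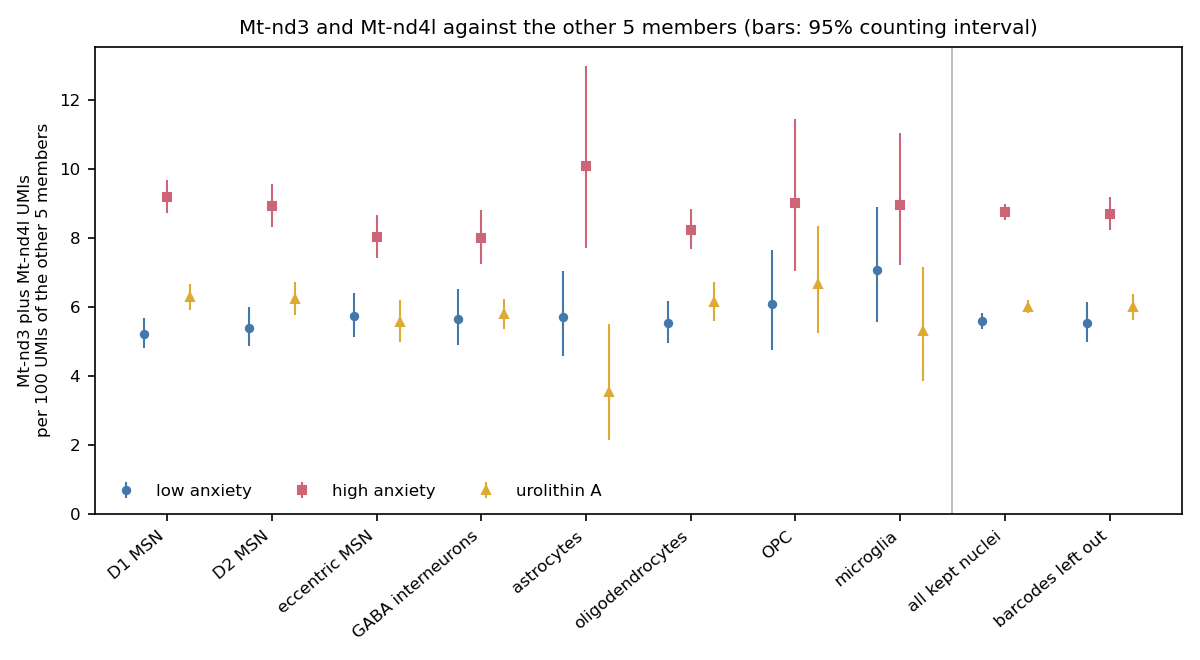
UMIs of Mt-nd3 plus Mt-nd4l per 100 UMIs of the other 5 members (y axis, linear from 0) in 8 classes, in all kept nuclei and in the barcodes left out by the filters or as likely doublets (x axis), for 3 libraries with 95% exact counting intervals. The HA squares lie between 8.0 and 10.1 in the 8 classes, above the LA circles (5.23 to 7.08) and the UA triangles (3.52 to 6.65).

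In D1 neurons the pair had 5.23 (4.81 to 5.66), 9.19 (8.72 to 9.69) and 6.27 (5.90 to 6.66) UMIs per 100 in LA, HA and UA. D2 neurons had 5.40, 8.92 and 6.23. The log2 ratio of this balance for HA over LA was 0.82 (0.68 to 0.96) in D1 and 0.73 (0.55 to 0.91) in D2, and for UA over HA it was -0.55 (-0.67 to -0.44) and -0.52 (-0.67 to -0.37). In astrocytes, where the summed level was lower in HA, the balance was still higher, at 5.71, 10.1 and 3.52 per 100 and a HA over LA log2 ratio of 0.82 (0.32 to 1.31). The interval for HA over LA lay above 0 in 7 of 8 classes, the exception being microglia at 0.34 (-0.12 to 0.80). For UA over HA it lay below 0 in 7 of 8, the exception being oligodendrocyte precursors at -0.44 (-0.93 to 0.05). Mt-nd3 alone and Mt-nd4l alone were each highest in HA in 8 of 8 classes by the same measure, with 4.21 to 5.24 and 3.04 to 5.50 UMIs per 100 over its classes. For Mt-nd4l alone the range of HA overlapped those of LA (2.30 to 3.85) and UA (1.06 to 3.20).

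The barcodes left out by the filters or as likely doublets, 239 in LA, 372 in HA and 318 in UA, lay close to the nuclei of their library. Of these, 96, 116 and 99 were likely doublets that had passed the filters. The balance over all barcodes left out was 5.54 (4.98 to 6.15), 8.70 (8.23 to 9.19) and 5.98 (5.62 to 6.36) per 100, beside 5.58, 8.75 and 6.0 in all kept nuclei. All barcodes left out had median mitochondrial shares of 5.14%, 5.78% and 6.03%. The part of free RNA in the balance was not tested.

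In this balance HA also stood highest among shallow and among deep nuclei. Nuclei of D1 neurons, D2 neurons and oligodendrocytes were each split into 4 bins of equal size by total UMIs over all libraries, a check chosen after the data were seen. HA had the highest balance in 12 of 12 bins, at 6.41 to 9.86 per 100, against 4.23 to 6.44 in LA and 4.81 to 6.99 in UA. In the bin of D1 nuclei with the fewest UMIs, from 777 to 5250, it was 4.49 in 283 nuclei of LA, 8.14 in 93 of HA and 4.92 in 169 of UA. Split by mitochondrial UMIs per nucleus, HA was again highest in 12 of 12 bins. In D1 nuclei with 52 to 91 mitochondrial UMIs it was 4.36, 9.49 and 6.59 per 100 in the 3 libraries. In some bins of either split the intervals of HA and LA overlapped. Oligodendrocytes with the fewest total UMIs, for example, had 4.80 to 8.40 in HA and 3.27 to 5.39 in LA. Over the clusters taken apart, the ranges of the balance in HA (6.93 to 11.5) and LA (4.93 to 8.56) overlapped. Some clusters held few UMIs of the pair, as cluster 19 with 34 in LA and 41 in HA. Within single clusters the balance was highest in HA in 16 of 16, of which cluster 23 had 1 nucleus and 0 UMIs of the pair in UA. Both D1 clusters showed it, at 5.54, 9.10 and 6.35 in cluster 2 and 4.97, 9.30 and 6.13 in the weakly marked cluster 3.

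**Figure D4:**
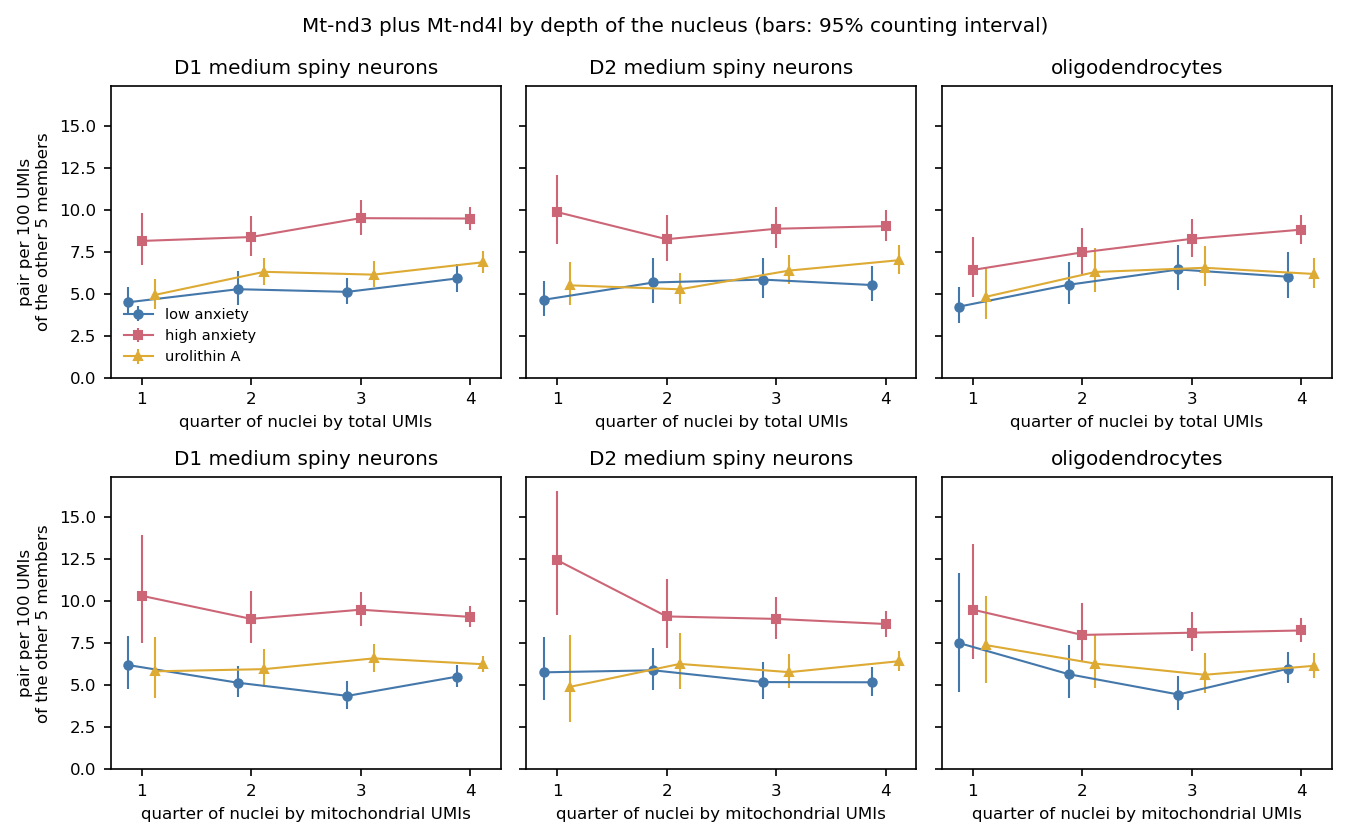
UMIs of Mt-nd3 plus Mt-nd4l per 100 UMIs of the other 5 members (y axis, linear from 0) in 4 bins of nuclei by total UMIs (upper row) and by mitochondrial UMIs (lower row), from the fewest (1) to the most (4), in 3 classes and 3 libraries with 95% counting intervals. The HA line is the highest in 12 of 12 bins in either row, but its intervals overlap those of LA in some bins. Examples are oligodendrocytes at bin 1 of total UMIs (4.80 to 8.40 in HA, 3.27 to 5.39 in LA) and D1 neurons at bin 1 of mitochondrial UMIs (7.50 to 13.9 and 4.77 to 7.92). The LA and UA intervals overlap except in D1 neurons at bin 3 of mitochondrial UMIs (4.36 and 6.59).

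Before thinning, the share of nuclei with at least 1 UMI had the order of the level for Mt-nd3 and Mt-nd4l in D1 neurons, and not for Mt-nd4 or Mt-nd2. In D1 neurons Mt-nd3 was found in 31.5% (28.2 to 34.9) of LA nuclei, 64.3% (60.5 to 68.0) of HA nuclei and 47.9% (44.3 to 51.5) of UA nuclei. Thinned to 2000 UMIs per nucleus, which left out 3, 7 and 5 nuclei, these shares were 13.6%, 24.2% and 20.0%. Mt-nd4l was found in 23.6%, 53.8% and 38.4% of D1 nuclei, and in 9.28%, 22.3% and 16.1% after thinning. Mt-nd4, on the same message as Mt-nd4l, was found in 90.9%, 95.1% and 92.5%, and in 68.6%, 76.6% and 76.4% after thinning, while its level was highest in UA. Mt-nd2 was found in 88.3%, 95.3% and 93.5%, also highest in HA where its level was not. After thinning its shares were 66.4%, 74.6% and 75.2%, highest in UA as its level was. In D1 neurons of HA the 1% of nuclei with most UMIs of Mt-nd3 held 7.72% of them, and the highest nucleus had 13 UMIs. No cell type lacks these genes, so no class gave a background share.

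Among the 6 other mitochondrially encoded genes, 1 resembled the pair over all kept nuclei. Mt-atp8, a small subunit of ATP synthase, had 74 UMIs in LA, 209 in HA and 141 in UA over all kept nuclei. As a share of all mitochondrial UMIs its log2 ratios were 1.03 for HA over LA and -0.56 for UA over HA, next to 0.70 and -0.54 for Mt-nd3 and 0.65 and -0.56 for Mt-nd4l. The member Mt-nd6, counted among the other 5, stood at 0.55 and -0.77. Both Mt-atp8 and Mt-nd6 had enough UMIs in 0 classes, so their values rest on all kept nuclei, whose mix of classes differed between libraries. Mt-atp6, on the same message as Mt-atp8, was at 0.21 and 0.12, and Mt-nd4, on the message of Mt-nd4l, at -0.11 and 0.00. How reads in the overlap of such genes were assigned was not given in the sources used here, so the split between them is uncertain. In the classes with enough UMIs, the share of mitochondrial UMIs was higher in HA than in LA in 5 of 5 for Mt-nd3, Mt-nd4l and Mt-nd5, in 7 of 8 for Mt-nd1 and in 8 of 8 for Mt-atp6 and Mt-co2, and lower in 8 of 8 for Mt-nd4, Mt-cyb and Mt-co3. The log2 ratio of the share lay between 0.48 and 0.97 for Mt-nd3, 0.40 and 0.88 for Mt-nd4l, and 0.05 and 0.23 for Mt-nd5. Mt-cyb encodes cytochrome b of complex III, and Mt-co2 and Mt-co3 encode subunits of complex IV.

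Nuclear genes of complex I are given from lists, also chosen with earlier results known. Of 37 listed nuclear subunits, 29 were measured in D1 neurons for HA over LA, with 0 higher, 2 lower and a median log2 ratio of -0.02, where the median of all genes was -0.01, and 7.56% of genes were higher and 11.5% lower. The 2 lower were Ndufc1, an accessory subunit, at 119 CPM in LA and 79.4 in HA, and Ndufs7, a core subunit with an iron-sulphur cluster, at 58.1 and 43.1 CPM. The highest was Ndufv2, a core subunit of the NADH-binding part, with a log2 ratio of 0.29 (0.07 to 0.51). For UA over HA 3 of 29 were higher and 0 lower, where 8.55% of genes were higher and 4.55% lower, among them Ndufc1 with 104 CPM and a log2 ratio of 0.39 (0.20 to 0.57), and Ndufa11 at 0.48 (0.22 to 0.74). In D2 neurons 1 of 26 was higher and 1 lower in HA, where 7.66% of genes were higher and 10.5% lower. For UA over HA there, 9 of 26 were higher and 0 lower, where 10.2% of genes were higher and 4.89% lower, with a median of 0.14 beside 0.03 for all genes. Ndufc1 was again the lowest in HA over LA, at -0.58 (-0.80 to -0.35), and Ndufb11, an accessory subunit, the highest for UA, at 0.54 (0.11 to 0.98).

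Assembly factors help build the enzyme and are not part of it. For HA over LA in D1 neurons 0 of 13 were higher and 4 lower (7.56% and 11.5% of all genes), with Ndufaf3 lowest at -0.77 (-1.19 to -0.35) and Ndufaf6 highest at 0.18 (-0.18 to 0.54). The UA over HA count was 0 of 11 in either direction (8.55% higher and 4.55% lower of all genes), with Ndufaf2 highest at 0.31 (0.09 to 0.53). In D2 neurons 1 of 9 was higher and 0 lower for HA over LA (7.66% and 10.5% of all genes), namely Ndufaf6 at 0.68 (0.24 to 1.13). There 1 of 8 was higher and 0 lower for UA over HA (10.2% and 4.89% of all genes), namely Timmdc1 at 0.41 (0.06 to 0.76). Of 34 listed genes for transcription, processing or turnover of mitochondrial RNA, 17 were measured in D1 neurons, 0 higher and 2 lower in HA (7.56% and 11.5% of all genes). Those 2 were Fastk, known for its part in the maturation of the Mt-nd6 message, at -0.56 (-0.77 to -0.35), and Mrpl12, a ribosomal protein that also binds the mitochondrial polymerase, at -0.51 (-0.95 to -0.07). Supv3l1, the helicase of the mitochondrial RNA degradosome, was highest at 0.28 (0.01 to 0.55). Under UA 2 of 17 were higher and 0 lower (8.55% and 4.55% of all genes), Trmt10c, a subunit of the enzyme that cuts transfer RNAs out of the precursor, at 0.72 (0.25 to 1.21), and Mterf4, which acts in mitochondrial ribosome assembly, at 0.48 (0.13 to 0.84). In D2 neurons 1 of 12 was higher and 2 lower for HA over LA (7.66% and 10.5% of all genes), with Twnk, the helicase of mitochondrial DNA replication, highest at 0.52 (0.09 to 0.94) and Mterf3 lowest at -0.42 (-0.86 to 0.01). Counts there for UA over HA were 0 of 11 in either direction (10.2% higher and 4.89% lower of all genes).

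Markers of other classes were present in the D1 class. The 11 oligodendrocyte markers summed to 146 CPM in LA, 184 in HA and 186 in UA there, against 50504 CPM in LA oligodendrocytes, and all 11 had UMIs in every library. The 12 microglial markers summed to 32.3, 40.8 and 40.4 CPM, with Ptprc at 0 in LA. The 11 astrocyte markers summed to 604, 682 and 511 CPM, with Gjb6 at 0 in LA and UA and Aldh1l1 at 0 in HA, beside 1051, 1008 and 1070.2 CPM of the class's own D1 markers. Markers of oligodendrocyte precursors summed to 563, 514 and 513 CPM, and those of eccentric neurons to 655, 627 and 598. In the D2 class the sums were 147, 177 and 182 CPM for oligodendrocytes and 659.9, 724 and 526 CPM for astrocytes. The part of these in the members' levels was not tested.

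Over the 24 pairs of class and library, the members whose CPM moved most alike were Mt-nd1, Mt-nd2 and Mt-nd5, with a Spearman correlation of 0.95 in each of their pairings. Mt-nd3 was at 0.85 with Mt-nd1, 0.83 with Mt-nd5 and 0.81 with Mt-nd2, above its 0.75 with Mt-nd4l, and Mt-nd4l and Mt-nd4 were at 0.71. Mt-nd6 reached at most 0.56 with any member. Genes ranked for likeness had at least 100 UMIs in each library of the D1, D2 and oligodendrocyte classes. They could have fewer in the other classes, which also entered the correlation. Of 2310 such genes, the 5 most like the summed members were Mt-atp6, Mt-co2, Mt-cyb, Mt-co1 and Mt-co3, at 0.93 to 0.83. The nuclear gene most like the summed members was Rtn4, at 0.82. With each class centred on its own mean, the genes most like Mt-nd3 plus Mt-nd4l were Xkr6 at 0.78, Ankrd11 at 0.77, Chd9 at 0.73, Ubn2 at 0.70 and Wbp4 at 0.67. Pairs of 1 library share its preparation and depth, and pairs of 1 class share its cell type, so these correlations only describe the units.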

How the data were processed

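The deposited tables held counts of UMIs per feature and barcode for 3 single-nucleus libraries (10x Chromium, 3' chemistry 3.1, per the labels' protocols). The authors' counts came from Cell Ranger 7.1.0, per the file headers, with mRatBN7.2 named as the build in the submitters' processing notes. Whether free RNA was removed, and how reads over overlapping genes were assigned, was not given in the sources used here. Among deposited barcodes the lowest total was 506 UMIs.

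Barcodes with under 500 genes or over 5% mitochondrial UMIs were left out, and likely doublets (scanpy 1.11.5, Scrublet scores, the highest 0.8% per 1000 nuclei: 96, 116 and 99) were removed. Counts were scaled to 10000 and log-transformed. Clusters (24) came from 2000 variable genes without mitochondrial ones, 30 components, 15 neighbours and Leiden resolution 1 (leidenalg 0.10.2, seed 7). A cluster was named by the marker list with the highest mean log2 fold, with at least 3 members 2-fold higher. Clusters led by markers of a different class stayed unnamed, an amendment made after the clusters were seen. Nuclei in unnamed clusters and in classes with under 50 nuclei in any library were not compared. The medium spiny neuron subclass came from the highest subclass list, since the shared list marks them all.

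For each class in each library, UMIs were added up and expressed per 1000000 UMIs (CPM). Ratios have exact conditional (Clopper-Pearson) intervals, levels exact Poisson and shares exact binomial ones, all at 95% and for counting error only. No test was made with 1 library per group. The balance of the pair has the interval of an odds ratio. The ratio intervals and the naming of clusters were tested on simulated data, and the other steps were not. Other tools were python 3.11.15, numpy 2.4.6, scipy 1.17.1, pandas 2.3.3, anndata 0.12.19, scikit-learn 1.9.0, igraph 0.11.9 and matplotlib 3.10.9. Of 250 listed symbols 238 were found, and 1814 features have no symbol. Genes named are the 7 members, the 6 other mitochondrial genes, the 2 highest and 2 lowest of each list per comparison in D1 and D2 neurons, and the 5 genes most alike by Spearman correlation, of which not every gene is printed. Members and lists were chosen with earlier results of these data known. Alternatives varied the nucleus filter, doublets, clustering, weighting, depth, scaling and reference genes.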

Additional observations from a re-analysis of the deposited data

Results flagged for a closer look

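The summed level of the 7 members stood in opposite directions between classes for high over low anxiety. The log2 ratio was 0.42 in D1 and 0.41 in D2 medium spiny neurons, and it was -0.88 in astrocytes, -0.72 in oligodendrocyte precursors and -0.60 in microglia. In these 3 glial classes 5 of 5 other measured mitochondrial genes were lower as well, where 16.6%, 12.4% and 9.65% of all measured genes were lower. The difference between classes was not tested, because each group is 1 library. Barcodes left out of every class, by the filters or as likely doublets, enter no comparison. In high anxiety they held 8.70 UMIs of Mt-nd3 plus Mt-nd4l per 100 UMIs of the other 5 members, against 5.54 in low anxiety.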

How the results depend on the processing

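With 1 library per group no library could be left out. No paired analysis was possible because each group has 1 library and no test was made. The alternatives reused counts of the same libraries, in whose ratios Mt-nd3 and Mt-nd4l had stood out, so they describe and test nothing. Their values are given without intervals, and the reported interval for high over low anxiety in microglia was -0.12 to 0.80. The balance was taken against the other 5 members, or in 1 alternative against the other 11 mitochondrial genes. Its log2 ratio was above 0 for high over low anxiety in 80 of 80 values over 8 classes and 10 alternatives (0.16 to 0.96). For urolithin A over high anxiety it was above 0 in 1 of 80 (-1.85 to 0.12). That exception was oligodendrocyte precursors with nuclei of at most 1% mitochondrial UMIs, at 0.12 in place of -0.44. Thinned to 2000 UMIs, it was 0.66 in D1 neurons for high over low anxiety and -0.68 in D2 neurons for urolithin A over high anxiety. In D1 and D2 neurons 38 of 40 values of the balance lay within the counting interval of the reported value, against 25 of 40 for the summed level, whose direction turned in D1 neurons for urolithin A over high anxiety.

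For the sum in D1 neurons, high over low anxiety was 0.38 with at most 1% mitochondrial UMIs, 0.38 at resolution 2, 0.60 in the largest cluster, 0.50 as a mean over nuclei and 0.51 when thinned. Urolithin A over high anxiety was -0.15 with at most 1%, 0.024 in the largest cluster and 0.024 when thinned. For the sum in D2 neurons, high over low anxiety was 0.15 with at most 1%, 0.48 as a mean over nuclei and 0.51 when thinned. Urolithin A over high anxiety was 0.082 with at most 1%, 0.39 in the largest cluster, 0.24 as a mean and 0.20 when thinned.

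Other values that turned did so mostly with at most 1% mitochondrial UMIs, a filter that removes nuclei by a quantity holding the members. In GABAergic interneurons the sum was then -0.28 for urolithin A over high anxiety, with Mt-nd1 -0.28, Mt-nd2 -0.21, Mt-nd4 -0.22 and Mt-nd5 -0.30. Over low anxiety the sum was -0.28, with Mt-nd1 -0.079, Mt-nd2 -0.22, Mt-nd3 -0.084 (-0.012 when thinned), Mt-nd4l -0.41 and Mt-nd5 -0.44. In oligodendrocyte precursors urolithin A over high anxiety was -0.25 for the sum, -0.34 for Mt-nd1, -0.24 for Mt-nd2 and -0.22 for Mt-nd4. Mt-nd5 in D2 neurons was -0.12 for high over low anxiety, and Mt-nd2 in eccentric neurons was -0.10 for urolithin A over low anxiety. With all deposited barcodes, oligodendrocytes had 0.087 for Mt-nd4 and 0.16 for Mt-nd4l for urolithin A over low anxiety. The cause was not tested. Depth limits Mt-nd6 in all 8 classes and Mt-nd3 and Mt-nd4l in astrocytes, oligodendrocyte precursors and microglia.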
